A study of Mus musculus with 6 samples.

Results

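The antioxidant and glutathione genes described here are 35 listed mouse genes of the 21485 genes measured in all 6 count matrices of this study. They were taken by gene name from a list that holds the transcription factor NRF2 and its partner KEAP1, heme oxygenase, the enzymes that make, recycle and use glutathione, the peroxiredoxin and thioredoxin system, the superoxide dismutases and catalase. All 35 were found, and all 35 passed the filter on low counts in the comparison of old with young, in which 14512 genes were tested.

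The cells were muscle-derived stem/progenitor cells (MDSPCs), which are obtained from dissociated skeletal muscle by repeatedly moving the cells that have not yet attached to fresh collagen-coated flasks, so that slowly attaching cells are enriched. The labels list 3 populations from young mice (Y1-1, PtC5 and FT-QU, called young replicates 1, 2 and 3 here) and 3 from old mice (O1-1, NA-f2 and NA-f3, called old replicates 1, 2 and 3). All 6 were grown in the same serum-rich proliferation medium, no treatment is named for any of them, and the mRNA of single cells was counted with droplet-based 3′ sequencing. The age, strain, genotype and sex of the mice, the number of animals behind a population and the number of passages are not given in the labels, so each population stands for itself as 1 replicate, and p-values measure the spread between populations.

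Reactive oxygen species such as superoxide and hydrogen peroxide arise in every cell that respires. Superoxide dismutases turn superoxide into hydrogen peroxide, which catalase, glutathione peroxidases and peroxiredoxins reduce further, while glutathione transferases couple the tripeptide glutathione to reactive compounds. Many of these genes are activated by NRF2, the product of Nfe2l2, which KEAP1 holds back by directing its degradation until oxidants or electrophiles modify KEAP1. In muscle progenitors, the balance of oxidants is known to affect survival, proliferation and the entry into differentiation.

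The deposited matrices held between 133974782 and 196481316 unique molecular identifiers (UMIs, each marking 1 captured RNA molecule) per sample, and 8674 to 12541 cells per sample were kept, with a median of 13001 to 19951 UMIs per cell. Pairs of samples shared 24 to 41 cell barcodes, or 0.254% to 0.375% of the smaller sample. Of 12 myogenic markers, 9 to 12 reached 1 CPM (the UMIs of a gene scaled to a common total of 1e+06) in each sample, and their summed level ran from 329 CPM in old replicate 1 to 3842 CPM in old replicate 3. None of the 6 endothelial and 4 erythroid markers reached 1 CPM in any sample. Of 7 immune markers, 2 or 3 reached 1 CPM, led by Cd14 and with Ptprc, Adgre1, Lyz2 and C1qa below it everywhere. Of 9 fibro-adipogenic markers, 3 or 4 did so, led by Gsn and with Dpt, Mfap5, Lum and Pi16 below it everywhere. The fibro-adipogenic markers summed to 186 CPM in old replicate 1 up to 436 CPM in young replicate 2, and to 30.6 to 237 CPM without Gsn. Mural markers summed to 12.2 to 92.5 CPM and glial markers to 1.25 to 6.42 CPM, and the part of these cell types in the results below was not tested.

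Between old and young populations, 5 of the 35 antioxidant genes did not overlap, all 5 with higher levels in the old populations. These were the glutathione peroxidases Gpx3 and Gpx7, the extracellular superoxide dismutase Sod3, and the glutathione transferases Gstm2 and Mgst1. Among all 14512 genes, 6.05% did not overlap (3.63% with old higher and 2.42% with old lower), against 5 of 35 members (14.3%). Gpx3 and Gpx7, with few UMIs in the young populations, passed the filter on low counts only through the old group. Sod3 and Mgst1 also needed an old population to pass, since young replicate 2 held 0 and 8 of their UMIs. Passing in this way favours an old-higher result. The members were also chosen with earlier results of these data known, so these shares are not a neutral comparison. None of the 35 passed edgeR's quasi-likelihood test at a Benjamini-Hochberg adjusted p under 0.05, and the background was 0.00689%, since a single gene, the NADPH oxidase subunit Cyba, was called among all those tested. At an unadjusted p under 0.05, 6 members (17.1%) and 512 genes (3.53%) were found. DESeq2, run as the alternative test, called 219 genes (1.51%, with 1.24% higher and 0.269% lower in old) and the same 5 non-overlapping members, all higher in old. The median log2 fold change (old over young) of the members was 0.17, with 23 of 35 above 0, beside -0.01 over all genes tested.

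**Figure D1:**
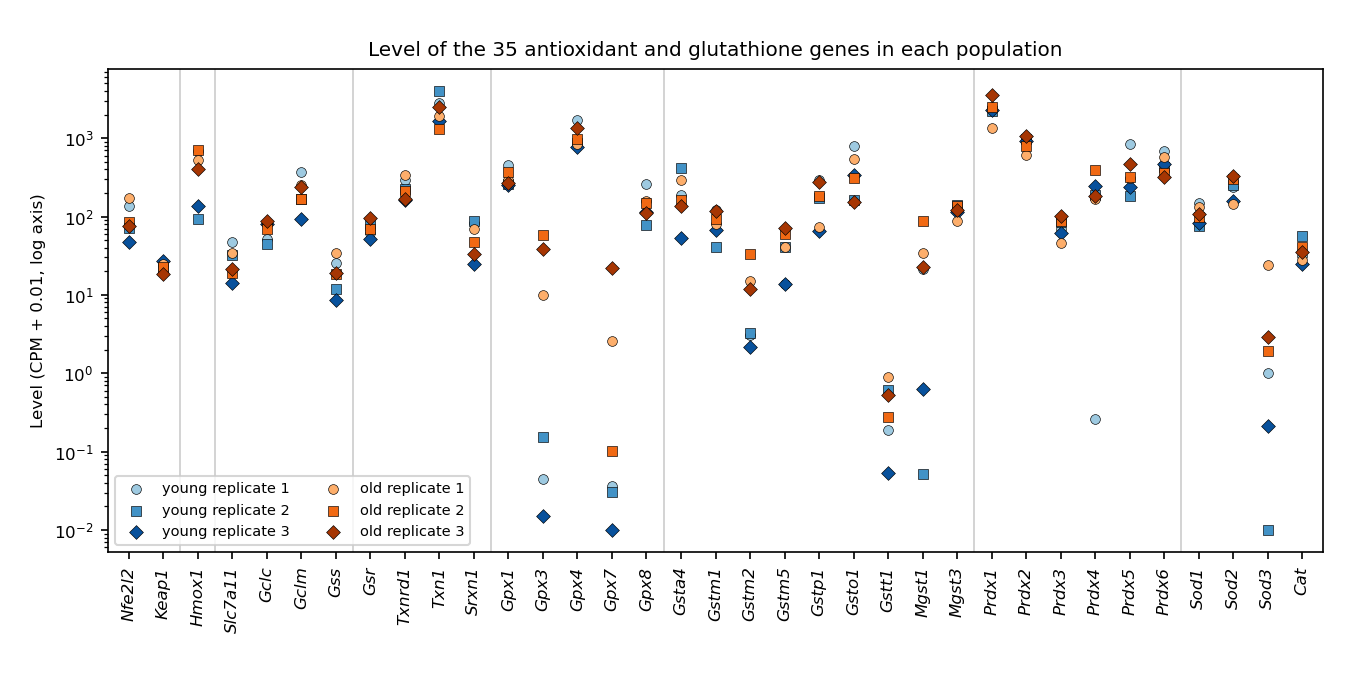
Level of each of the 35 genes in the 6 populations, as scaled CPM plus 0.01 on a log axis, with vertical lines between functional groups (NRF2 and KEAP1, heme oxygenase, cystine import and glutathione synthesis, reduction cycle, glutathione peroxidases, glutathione transferases, peroxiredoxins, superoxide dismutases and catalase). Gpx3, Gpx7, Mgst1, Sod3 and Gstm2 lie higher in every old than in every young population, and Prdx4 has a single low point in young replicate 1.

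Nfe2l2 (chromosome 2, 75675513 to 75704641, minus strand, GRCm38), which encodes NRF2, was at 138, 71.8 and 47.9 CPM among the young populations and at 171, 84.7 and 76.3 CPM among the old ones, each time in the order of replicates 1, 2 and 3. These and all other levels (which keep this order) by population are CPM scaled with edgeR's TMM factors. The highest young population lay above the lower 2 old ones, and the fold change of 0.39 (log2, SE 0.23) had an unadjusted p of 0.149. Keap1 was the most even of the members, from 18.3 CPM in old replicate 3 to 26.9 CPM in young replicate 3, a ratio of 1.47.

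NRF2 binds antioxidant response elements together with small MAF proteins. The core of this element, TGACNNNGC, was searched on both strands in RefSeq promoter windows (GRCm38.p6, 250 bases before to 50 after a gene's start), which were found for 29 of the 35 members. Of these, 8 held a match, beside 14.0% of the 27025 genes with a window. The windows of the members held a median of 13 CpG sites (a C followed by a G), beside 6 over all windows. The background thus differs from the members in base composition, and the part of this in the shares was not tested. The 8 stretches are shown because their genes are the members through which a reader can follow the element into the comparison of cell classes below. Each is written 5′ to 3′ on the strand of its gene, and the capitals mark the 9 letters of the match, which reads TGAC first when it lies on the strand of the gene and ends in GTCA when it lies on the opposite strand.
Nfe2l2 at chr2:75704885-75704913, minus strand: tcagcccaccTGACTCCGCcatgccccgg
Srxn1 at chr2:152105542-152105570, plus strand: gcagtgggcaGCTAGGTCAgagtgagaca
Gclm at chr3:122245413-122245441, plus strand: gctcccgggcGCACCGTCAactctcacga
Txnrd1 at chr10:82859104-82859132, plus strand: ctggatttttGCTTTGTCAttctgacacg
Mgst1 at chr6:138140461-138140489, plus strand: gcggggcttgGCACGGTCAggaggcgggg
Gstm5 at chr3:107895802-107895830, plus strand: caccgcccacTGACCACGCggagggcggg
Prdx1 at chr4:116685456-116685484, plus strand: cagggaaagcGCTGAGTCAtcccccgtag
Sod1 at chr16:90220696-90220724, plus strand: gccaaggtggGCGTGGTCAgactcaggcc
The first 5 of these genes were called lower in Myog-positive cells, as described below, and the other 3 were not. The calls of Nfe2l2 and Mgst1 were lost in some alternative fits. A match of these letters is a description of the window and does not show that a protein binds there.

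Hmox1, the inducible heme oxygenase that breaks heme down to biliverdin, iron and carbon monoxide, was at 681, 92.7 and 134 CPM among the young and at 519, 700 and 405 CPM among the old populations. Young replicate 1 was as high as the old populations, while the other two young ones were lower than every old one. Its fold change was 1.45 (log2, SE 0.67) with an unadjusted p of 0.0754. It was 2.28 without young replicate 1, 0.92 without young replicate 2 and 0.84 without the term for the gene list. Only the populations numbered 1 were counted on a shorter gene list. The fit without young replicate 1 therefore also sets old replicate 1 aside, through the gene list term.

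The genes of cystine import and glutathione synthesis overlapped between the groups. Slc7a11, the cystine transporter that supplies cysteine, was at 47.7, 32.4 and 14.3 CPM among the young and 34.3, 18.9 and 21.3 CPM among the old populations. Gclc, the catalytic subunit of glutamate-cysteine ligase, was at 51.3, 44.2 and 80.8 CPM among the young and 81.7, 68.3 and 88.7 CPM among the old. Gclm, the modifier subunit of the same ligase, was at 366, 165 and 93.0 CPM among the young and 255, 166 and 241 CPM among the old. For both ligase subunits, 1 young population lay within or above the old values. Gss, glutathione synthetase, was at 25.8, 11.7 and 8.53 CPM among the young and 34.5, 18.3 and 19.1 CPM among the old populations, with a fold change of 0.73 (log2, SE 0.24) and an unadjusted p of 0.0238. The adjusted p over all genes was 1.00 with edgeR. Gss overlaps Acss2 on the opposite strand.

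In the reduction cycle, Txn1 (thioredoxin) was the second most abundant member by mean level over all populations. It was at 2822, 3997 and 1631 CPM among the young and 1888, 1297 and 2526 CPM among the old populations. Txnrd1, the reductase that recharges thioredoxin, ran from 162 CPM in young replicate 3 to 337 CPM in old replicate 1. Srxn1, which repairs overoxidized peroxiredoxins, ran from 24.9 CPM in young replicate 3 to 88.8 CPM in young replicate 2. Gsr, which regenerates glutathione, ran from 51.0 CPM in young replicate 3 to 95.05 CPM in old replicate 3. The groups overlapped for all 4 genes.

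Gpx3, the secreted glutathione peroxidase of plasma, had the largest edgeR fold change between the groups among the members. By the ratio of summed counts, Gpx7 was ahead of it, as given below. It was at 0.035, 0.145 and 0.0049 CPM among the young populations, from 4, 28 and 1 UMIs, and at 10.0, 58.8 and 37.9 CPM among the old ones, from 1682, 10910 and 6542 UMIs. Every old population was thus far above every young one. From the summed UMIs of each group, in CPM without TMM scaling (as for all ratios of summed counts below), the level was 585 times higher in old, with a 95% interval of 416 to 850 that covers counting error only. The fitted fold change was 9.02 (log2, SE 1.18), with an unadjusted p of 3.59e-04 and an adjusted p of 0.347 with edgeR. It was called by DESeq2 (adjusted p 1.98e-17) and by edgeR without young replicate 3 (adjusted p 0.0343), and over all alternatives its adjusted p ran from 1.98e-17 to 1.0. Gpx3 and Alox5 were the only 2 genes under 0.2 CPM in all young and over 10 CPM in all old populations, and no gene showed the reverse at these limits. The limits lie close to the values of Gpx3 itself, at most 0.145 CPM in the young and at least 10.0 CPM in the old populations. The count of 2 genes thus depends on limits that fit this gene. Gpx3 lies on chromosome 11, 54902453 to 54910377 (plus strand). Of the 6 nearest genes with a mean above 1 CPM, 3 on either side, 5 overlapped between the groups, with Tnip1 at 7.48 to 13.2 CPM among the young and 9.19 to 21.4 CPM among the old populations. Gm2a, whose start is 196 kb away, did not overlap, at 3.08, 0.638 and 3.31 CPM among the young and 4.36, 8.88 and 3.98 CPM among the old. The 647 genes of chromosome 11 with a mean over 10 CPM were set against the median of the other populations. Their median difference (log2) was 0.39 in old replicate 2, where Gpx3 was highest. It was -0.12 in old replicate 1 and -0.06 in old replicate 3. The part of this shift in the Gpx3 values was not tested.

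The Gpx3 transcript was found in a minority of the old cells. After every cell was thinned to 5000 UMIs, a Gpx3 UMI was present in 3.81%, 18.0% and 15.3% of the cells of old replicates 1, 2 and 3. In the young populations the shares were 0 of 8444 cells, which allows a share of up to 0.0355%, 9 of 10646 cells (0.0845%), and 0 of 10631 cells, which allows up to 0.0282%. Such a share counts cells with a captured molecule and not cells that express the gene. Had the same UMIs been spread evenly over the cells, 4.85%, 27.2% and 16.9% of the old cells would hold 1 or more, so the observed shares were lower than an even spread gives in all 3 old populations.

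Gpx7, a peroxidase of the endoplasmic reticulum, was at 0.026, 0.021 and 0 CPM among the young populations (3, 4 and 0 UMIs). It was at 2.57, 0.092 and 22.3 CPM among the old ones (432, 17 and 3843 UMIs). Old replicate 3 stood apart, and old replicate 2 lay close to the young populations. The ratio of old to young from summed counts, without TMM scaling, was 618, with a counting interval of 300 to 1539, and the fitted change was 8.89 (log2, SE 2.53). Its unadjusted p was 0.0141. Most UMIs of the old group were thus from old replicate 3, and without it the fitted change was 4.70, the lowest over the alternatives.

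The other glutathione peroxidases overlapped between the groups. Gpx4, which reduces lipid peroxides in membranes and protects from ferroptosis, was at 1691, 876 and 780 CPM among the young and 844, 963 and 1340 CPM among the old populations. Gpx1, the cytosolic form, ran from 252 CPM in young replicate 3 to 449 CPM in young replicate 1, and Gpx8, another form of the endoplasmic reticulum, from 77.3 CPM in young replicate 2 to 257 CPM in young replicate 1. Young replicate 1 was the highest of the 6 populations in all 3 of these genes.

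Among the 9 glutathione transferases, Gstm2 and Mgst1 did not overlap between the groups. Gstm2, a cytosolic mu-class enzyme known from muscle, was at 3.09, 3.22 and 2.14 CPM among the young and 15.2, 33.7 and 12.01 CPM among the old populations. The young values lay close together and every old value lay well above them. The fold change was 2.83 (log2, SE 0.50), the unadjusted p 0.00159 and the adjusted p 0.661 with edgeR, while DESeq2 called it at an adjusted p of 2.03e-05. Gstm5, a mu-class gene on the same stretch of chromosome 3, was at 13.6, 41.3 and 13.7 CPM among the young and 40.7, 59.6 and 72.02 CPM among the old populations, so that young replicate 2 and old replicate 1 overlapped by a small margin. Its fold change was 1.36 (log2, SE 0.43) with an unadjusted p of 0.0215. Gstm1, the third gene of that cluster among the members, overlapped at 40.7 to 120 CPM among the young and 79.9 to 119 CPM among the old populations. Counts of these paralogs, and of Gstp1, are uncertain where reads fit more than 1 copy.

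Mgst1, a membrane-bound transferase of the endoplasmic reticulum and mitochondria, split the young populations. It was at 21.1, 0.042 and 0.62 CPM among the young and at 33.9, 87.4 and 22.9 CPM among the old populations. Young replicate 1 lay just below old replicate 3. In CPM without TMM scaling, it was at 50.6 times the level of the other two young populations summed (counting interval 42.5 to 60.6). The fold change was 5.83 (log2, SE 2.40) with an unadjusted p of 0.0543 with edgeR. It was 2.73 without the term for the gene list, 3.70 without young replicate 2 and 7.37 without young replicate 1. As for Hmox1, the last of these fits also sets old replicate 1 aside. At 5000 UMIs per cell, a Mgst1 UMI was found in 7.34% of the cells of young replicate 1, in 0 of 10646 cells of young replicate 2, which allows up to 0.0282%, and in 0.282% of those of young replicate 3. In the old populations the shares were 15.6%, 34.2% and 8.50%.

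The remaining transferases overlapped. Gsta4, which clears the lipid peroxidation product 4-hydroxynonenal, ran from 53.9 CPM in young replicate 3 to 414 CPM in young replicate 2. Gsto1 ran from 152 CPM in old replicate 3 to 801 CPM in young replicate 1, Gstp1 from 65.9 CPM in young replicate 3 to 294 CPM in young replicate 1, and Mgst3 from 88.01 to 139 CPM. Gstt1 stayed under 1 CPM in all 6 populations.

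**Figure D2:**
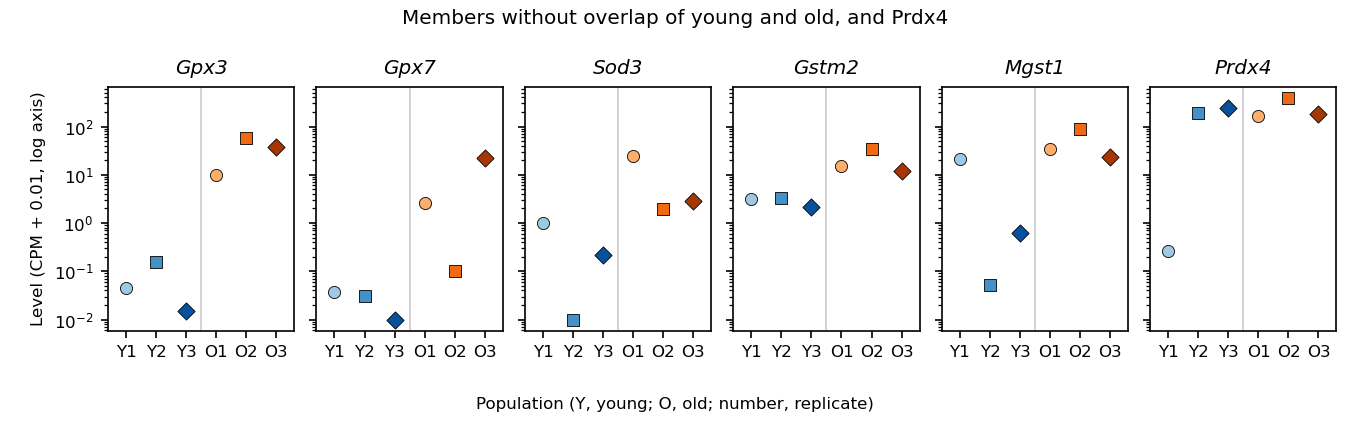
Scaled CPM plus 0.01 (log axis) of the 5 members without overlap of young and old and of Prdx4, by population (Y, young; O, old; the number is the replicate). Gpx3 and Gstm2 are high in all 3 old populations, Gpx7 is led by old replicate 3 and Sod3 by old replicate 1, Mgst1 divides the young populations, and Prdx4 is low in young replicate 1 alone.

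Among the peroxiredoxins, which reduce hydrogen peroxide through a reactive cysteine, Prdx4 was nearly absent from a single population. Prdx4 (chromosome X, 155323918 to 155340754, minus strand), the form of the endoplasmic reticulum, was at 0.247 CPM in young replicate 1, from 28 UMIs. It was at 190 and 247 CPM in young replicates 2 and 3 and at 168, 389 and 183 CPM among the old populations. The other 5 populations thus lay in one band far above it. In CPM without TMM scaling, their summed counts gave 1170 times the level of young replicate 1 (counting interval 809 to 1760). At 5000 UMIs per cell, 10 of 8444 cells of young replicate 1 held a Prdx4 UMI (0.118%, 95% Wilson interval 0.0643% to 0.218%), whereas 55.3% to 80.8% of the cells of the other populations did. Prdx4 was the only gene of all measured under 1 CPM in young replicate 1 and over 50 CPM in the other 5 populations.

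The gap did not extend to the genes beside it. In young replicate 1 the neighbour Acot9, which starts 61 kb away, was at 85.1 CPM beside 76.4 to 179 CPM in the other populations. Sat1, at 111 kb, was at 277 CPM, the highest of the 6 populations, and Sms, further along the chromosome, at 158 CPM. The genes of chromosome X with a mean over 10 CPM differed in young replicate 1 from the median of the other populations by a median of -0.03 (log2, 261 genes), and in old replicate 2, where Prdx4 was highest, by 0.84. Old replicate 1 was counted on the same shorter gene list as young replicate 1 and held Prdx4 at 168 CPM. The fold change of old over young was 1.94 (log2, SE 1.92) with all populations. It was 0.39 without young replicate 1 or without old replicate 1, 4.23 without old replicate 2 and 4.78 without old replicate 3. Leaving out either population numbered 1 sets the other aside too, through the gene list term. The value of 0.39 thus compares the longer-list populations only, without the low young replicate 1.

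**Figure D3:**
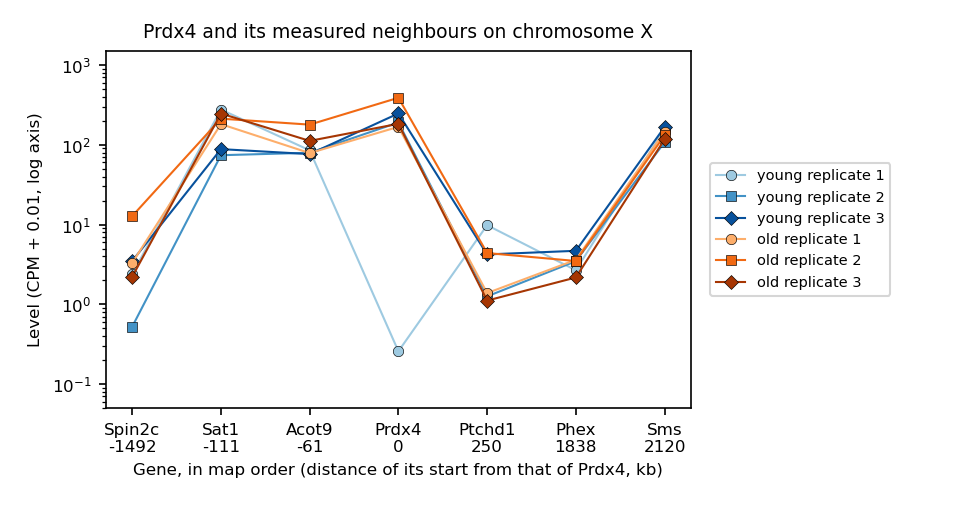
Scaled CPM plus 0.01 (log axis) of Prdx4 and the 3 measured genes with a mean above 1 CPM on either side of it on chromosome X, in map order with the distance between gene starts in kb, 1 line per population. The point of Prdx4 in young replicate 1 drops to 0.247 CPM. Acot9 and Sms of that population lie among those of the others, and its Sat1, at 277 CPM, is the highest of the 6.

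The groups overlapped for the other 5 peroxiredoxins. Prdx1, the most abundant member by mean level over all populations, was at 2525, 2191 and 2253 CPM among the young and 1351, 2530 and 3542 CPM among the old populations. Prdx2 ran from 617 to 1079 CPM, with both ends in old populations, and overlaps Rnaseh2a and Junb on the opposite strand. Prdx3, the mitochondrial form, ran from 46.2 to 102 CPM, Prdx5 from 184 to 838 CPM and Prdx6, which also acts as a phospholipase, from 318 to 681 CPM.

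Sod3, the secreted superoxide dismutase, was at 1.01, 0 and 0.205 CPM among the young populations (114, 0 and 42 UMIs) and at 24.02, 1.90 and 2.88 CPM among the old ones (4030, 352 and 496 UMIs). Old replicate 1 stood apart, and the other two old populations lay much closer to young replicate 1 than to it. The fold change was 4.54 (log2, SE 1.34) with an unadjusted p of 0.0159. It was 4.53 without old replicate 1, but in that fit the gene list term also sets aside young replicate 1, the highest young population. That value therefore does not give the change against all 3 young populations. Over the alternatives the fold change ran from 3.97 without young replicate 2 to 6.32 without young replicate 3. Sod1, the cytosolic form, ran from 75.2 to 149 CPM, Sod2, the mitochondrial form, from 144 to 327 CPM, and catalase (Cat) from 24.6 to 55.6 CPM, and all 3 overlapped between the groups.

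By a fixed limit, 3 members followed a single population, that is, the highest or lowest sample lay 4-fold or more from the next one after 1 CPM was added. These were Gpx7 (high in old replicate 3), Sod3 (high in old replicate 1) and Prdx4 (low in young replicate 1), or 8.57% of the members beside 2.14% of all 14512 genes. With 5 CPM added, or with an 8-fold limit, 1 member was left in each case, Prdx4, beside 0.765% and 0.558% of all genes.

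A second question was how these genes vary between cells of 1 population, since the populations differ in their share of differentiating and of cycling cells. Myog encodes myogenin, the transcription factor that drives the step from proliferating myoblast to differentiating myocyte. Cells with 2 or more Myog UMIs and cells with 0 were compared within each of 5 populations, with 5000 UMIs per cell and the population as a block, and old replicate 1 was left out because it held 38 Myog-positive cells. Myog-positive cells numbered 197, 1550 and 235 in the 3 young populations and 852 and 4399 in old replicates 2 and 3. Fewer of them were double-positive for the cell cycle genes Top2a and Mki67, 0.704% to 17.02% beside 9.97% to 19.2% of Myog-negative cells.

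In Myog-positive cells, 3 of the 4 genes of cystine import and glutathione synthesis (Slc7a11, Gclc and Gclm, but not Gss) and all 4 genes of the reduction cycle fell, and Sod2 rose. The calls of Slc7a11, Gclc, Gsr and Txn1 were each lost in 1 or more of the alternatives, as given below. Of 32 members tested, 13 fell (40.6%) and 4 rose (12.5%) with edgeR, beside 18.3% of the 12253 genes tested that fell and 15.4% that rose (33.7% in either direction). Gpx3, Gpx7 and Sod3 did not pass the filter on low counts. For Gpx3 the young populations held 0 to 6 UMIs per class. In old replicates 2 and 3 it was at 80.0 and 30.3 CPM in Myog-positive cells, beside 55.4 and 43.2 CPM in Myog-negative cells. The median log2 fold change was -0.23 over the members and -0.06 over all genes. When samples were scaled by library size alone, 3089 genes fell and 1460 rose in place of 2247 and 1885, the median over all genes moved to -0.15, and 16 members fell and 2 rose. Among cells free of Top2a and Mki67 UMIs, 13 members fell and 4 rose, beside 2244 and 1882 of 11729 genes. The number of members called dropped from 17 to 10 of 32 without old replicate 2 (31.2%, beside 22.3% of all genes) and to 7 of 31 without old replicate 3. The last of these is 22.6% beside 22.2% of all genes, so that without old replicate 3 the share of members called in either direction was that of the background. In that fit 6 members fell (19.4%) and 1 rose (3.23%), beside 12.1% and 10.1% of all genes.

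Srxn1 showed the largest fall, by 1.45 on the log2 scale (SE 0.12, adjusted p 1.16e-04 with edgeR). In Myog-positive cells it was at 30.9, 32.9 and 10.6 CPM in the 3 young populations and at 13.6 and 14.9 CPM in old replicates 2 and 3. In Myog-negative cells of the same populations it was at 75.5, 90.7 and 22.1 CPM and at 48.2 and 38.9 CPM. The fall was seen in 5 of 5 populations and remained called in all 13 alternatives. Since old replicate 1 was left out here, leaving out young replicate 1 and keeping only the longer-list samples are the same fit. It enters each count of 13 alternatives under both names. All 4 genes of the reduction cycle fell, with Txnrd1 by 0.57 (SE 0.09, adjusted p 0.00197), Txn1 by 0.28 and Gsr by 0.28, each lower in 5 of 5 populations. The calls of Gsr were lost in 5 of the 13 alternatives and that of Txn1 without old replicate 3 (adjusted p 0.0510).

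Gclm fell by 0.86 (log2, SE 0.13, adjusted p 0.00205 with edgeR). Its level in Myog-positive cells was 129, 117 and 54.4 CPM among the young and 99.7 and 146 CPM among the old populations, beside 360, 162 and 88.7 CPM and 166 and 281 CPM in Myog-negative cells. All 5 populations moved the same way, and the call held in all 13 alternatives. Gclc fell by 0.59 (adjusted p 0.0111; 0.0511 without old replicate 3) and Slc7a11 by 1.11 (SE 0.31, adjusted p 0.0357). The call of Slc7a11 was lost without young replicate 2, old replicate 2 or old replicate 3, and its adjusted p ran from 0.00286 to 0.113. Gss, the last enzyme of the pathway, did not follow, at 0.56 with an adjusted p of 0.0615 and higher in 4 of 5 populations.

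Of the transferases, Gsta4 fell by 0.86 (adjusted p 0.00693, held in all 13 alternatives), Mgst1 by 0.90 (adjusted p 0.00625) and Gsto1 by 0.59 (adjusted p 0.0275; not called without young replicate 3 or old replicate 3). Mgst1 was lower in the 3 populations in which it was above 1 CPM, and its call was lost with DESeq2 and without old replicate 3 (highest adjusted p 0.0518). Gstm5 rose by 0.35 (adjusted p 0.0175), a call that was lost under library size scaling, among cells free of Top2a and Mki67 UMIs, and without young replicate 2, old replicate 2 or old replicate 3. Of the peroxiredoxins, Prdx6 fell by 0.38 (adjusted p 0.0112, held in all 13 alternatives) and Prdx4 by 0.44 (adjusted p 0.00992; 0.0583 without old replicate 2). The mitochondrial Prdx3 rose by 0.45 (adjusted p 0.0160), in 4 of 5 populations, and was not called without thinning or without young replicate 2, old replicate 2 or old replicate 3. Nfe2l2 itself fell by 0.30 (adjusted p 0.0410 with edgeR), in 5 of 5 populations. This call was lost in 6 of the 13 alternatives, among them the fit without young replicate 1 under both of its names.

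Sod2, the superoxide dismutase of mitochondria, rose by 0.59 (log2, SE 0.10, adjusted p 0.00269 with edgeR), in 5 of 5 populations and in all 13 alternatives. It was at 422, 357 and 172 CPM in Myog-positive cells of the young and 427 and 413 CPM in those of the old populations, beside 229, 221 and 154 CPM and 275 and 276 CPM in Myog-negative cells. The smallest of these differences was that of young replicate 3. Gpx4 rose by 0.22 (SE 0.06, adjusted p 0.0240), also in 5 of 5 populations, and lost its call in 6 of the 13 alternatives, among them library size scaling.

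**Figure D4:**
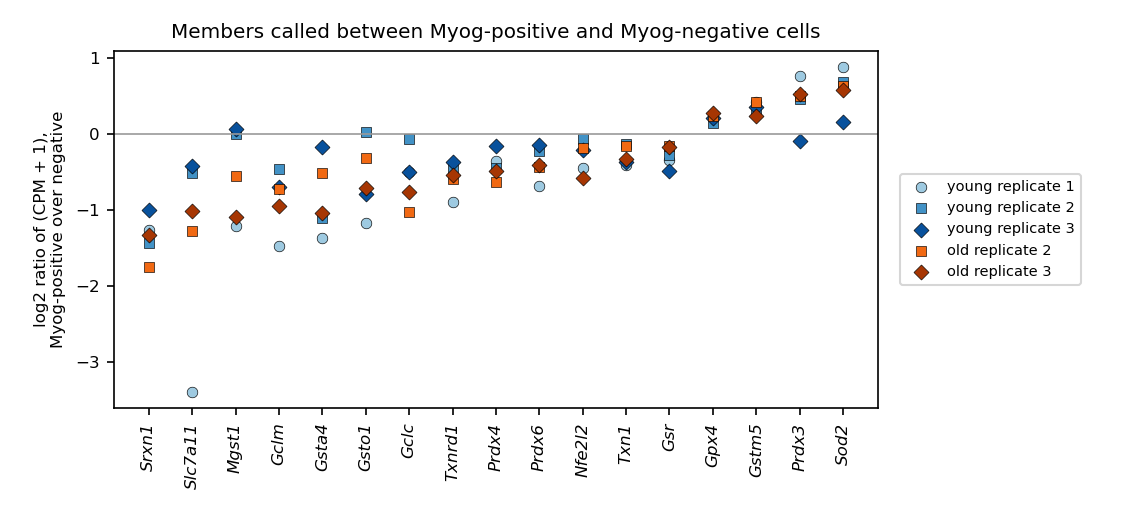
Ratio of the level (CPM + 1, log2) in Myog-positive over Myog-negative cells of the 17 members called, 1 point per population, sorted by the fitted fold change. Srxn1, Gclm, Txnrd1, Gsta4 and Prdx6 lie below 0 in 5 of 5 populations and Sod2 above 0, while Slc7a11 spreads most, with young replicate 1 at -3.39.

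The response element letters described above were present in the windows of 5 of the 9 members that fell and had a window (Nfe2l2, Srxn1, Gclm, Txnrd1 and Mgst1). They were also present in 3 of the 20 others with a window (Gstm5, Prdx1 and Sod1), beside 14.0% of all genes. As given above, the windows of all genes held fewer CpG sites, so this background is not a matched one. Among the 5, the calls of Nfe2l2 and Mgst1 were lost in some of the alternatives. Other genes of the pathway were read from a list of 88 genes, of which 76 could be tested here: 23 fell and 6 rose, beside 18.3% and 15.4% of all genes. Of its 21 NRF2 targets that make NADPH or detoxify, 13 fell and 1, Akr1b8, rose, against the same background. Those that fell included Tkt of the pentose phosphate pathway by 1.45 (SE 0.18), G6pdx, its first enzyme, by 0.93 (SE 0.18), the quinone reductase Nqo1 by 0.90 (SE 0.21) and the epoxide hydrolase Ephx1 by 1.29 (SE 0.12). The median over these 21 genes was -0.59. These values of the other pathway genes come from the fit with TMM scaling and all 5 populations. The alternatives were not counted for this list.

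Cycling cells were compared in the same way in all 6 populations, as cells with at least 1 UMI of both Top2a and Mki67 against cells with 0 of both. Most members were lower in the cycling cells, and Gclc, Gclm, Gsr, Txnrd1 and Prdx4 were higher. Of 33 members tested, 22 fell (66.7%) and 5 rose (15.2%), beside 25.8% of the 11767 genes tested that fell and 18.6% that rose with edgeR (44.4% in either direction). The median was -0.28 over the members and -0.05 over all genes. Under library size scaling alone, 1829 genes fell and 3415 rose in place of 3035 and 2194, the median over all genes moved to 0.06, and 17 members fell and 6 rose. Among cells free of Myog UMIs, 25 members fell and 4 rose, beside 2902 and 2021 of 11729 genes. Cycling cells held more UMIs before thinning, a median of 15412 to 24396 beside 11830 to 19206 per population, and the part of this difference in the results was not tested.

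Txnrd1 rose by 0.33 (log2, SE 0.04, adjusted p 6.20e-05 with edgeR), in 6 of 6 populations and in all 14 alternatives. Its level in cycling cells was 328, 257 and 179 CPM among the young and 395, 272 and 196 CPM among the old populations, beside 285, 206 and 142 CPM and 332, 192 and 151 CPM in double-negative cells. Gclc rose by 0.34 (SE 0.07, adjusted p 0.00262) and Gsr by 0.34 (SE 0.08, adjusted p 0.00410), each in 6 of 6 populations and in all 14 alternatives. Gclm rose by 0.17 (adjusted p 0.0157) and Prdx4 by 0.28 (adjusted p 0.0193; higher in 4 of 6 populations), but these calls were lost in 4 and 3 of the alternatives. The 5 genes that rose in cycling cells all fell in Myog-positive cells, and these fits draw on the same cells, so they are given side by side and not as independent counts.

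Gpx3 was lower in the cycling cells of the old populations, where it was at 6.20, 25.3 and 26.03 CPM in cycling cells and at 13.5, 70.6 and 46.0 CPM in double-negative cells of replicates 1, 2 and 3, so that the level was lower in cycling cells of all 3. The young populations held 0 to 0.19 CPM in either class, from 0 to 6 UMIs, so that the fitted change over all 6 populations, -1.12 (SE 0.13, adjusted p 7.31e-05 with edgeR), rests on the 3 old ones. Without any 1 of these Gpx3 did not pass the filter on low counts, and it was tested in 11 of the 14 alternatives. Mgst1 fell by 0.81 (SE 0.11), Gsta4 by 0.54 (SE 0.07), Gstm1 by 0.51 (SE 0.06) and Hmox1 by 0.54 (SE 0.06), and all 8 transferases tested fell. Hmox1 was at 434, 80.2 and 118 CPM in cycling cells of the young and 456, 454 and 347 CPM in those of the old populations, beside 751, 101 and 167 CPM and 649, 758 and 444 CPM in double-negative cells.

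Of the 6 peroxiredoxins, all but Prdx4 fell, as did Gpx4, Sod2 and catalase. Prdx2 fell by 0.40 (SE 0.03, adjusted p 3.50e-06), with a range over the 6 populations from -0.50 to -0.30, and Gpx4 by 0.29 (SE 0.03, adjusted p 9.22e-06), from -0.36 to -0.24. Sod2 fell by 0.41 (SE 0.05), Prdx5 by 0.38 (SE 0.04), Prdx3 by 0.36 (SE 0.07), Cat by 0.34 (SE 0.07) and Prdx1 by 0.21 (SE 0.02), each in 6 of 6 populations. Of the 22 falls, 16 were called in all alternatives in which the gene was tested, among them Gpx3 with 11, and those of Gss, Gpx8, Gstm2, Gsto1, Prdx6 and Sod1 were not. Srxn1, which fell most in Myog-positive cells, was at 0.01 (SE 0.07) between cycling and double-negative cells.

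**Figure D5:**
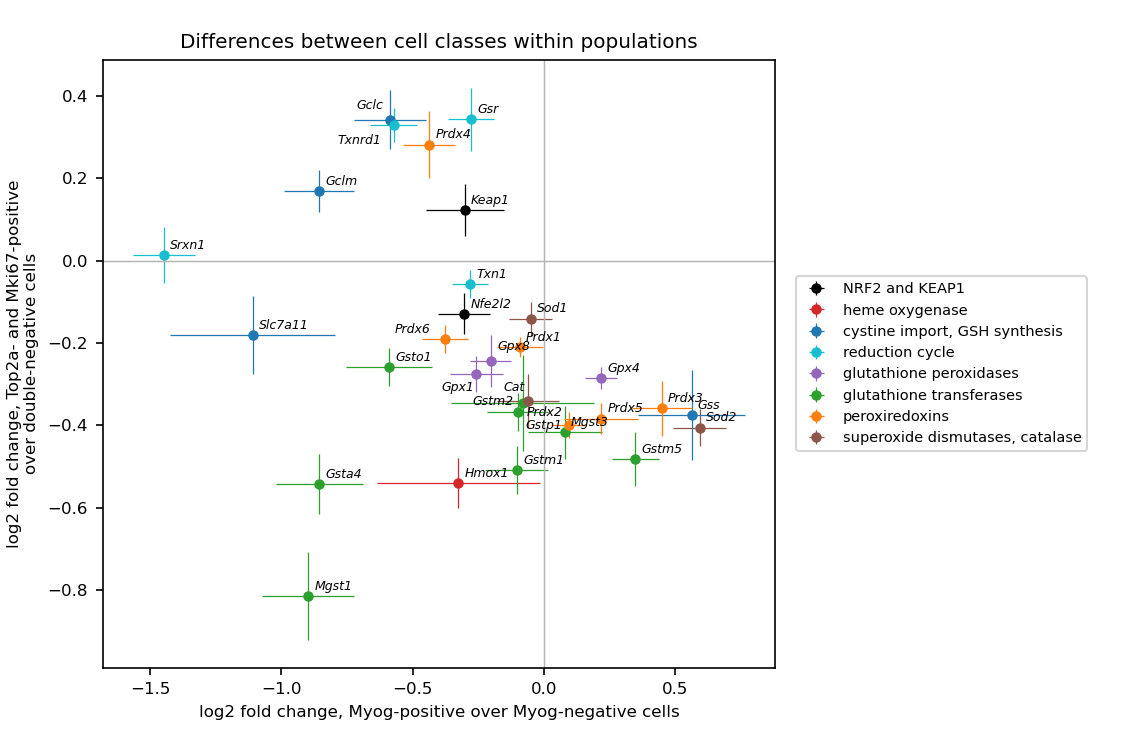
Fitted log2 fold change of each member tested in both comparisons, Myog-positive over Myog-negative cells (horizontal axis) and Top2a- and Mki67-positive over double-negative cells (vertical axis), with bars of 1 SE and colours for functional groups. Gclc, Gclm, Txnrd1, Gsr and Prdx4, called in both comparisons, lie at the upper left, Sod2, Prdx3, Gstm5 and Gpx4, also called in both, at the lower right, and Mgst1 and Gsta4 are lower in both classes.

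Whether these class differences depended on the age group was tested with a class-by-group term. No member passed in either comparison (edgeR), beside 3 of 12253 genes (0.0245%) for Myog, the muscle genes Myom3, Mb and Smpx, which were named after their values were seen, and 0 of 11767 genes for cycling. At an unadjusted p under 0.05, 2 members and 416 genes (3.4%) were found for Myog, and 3 members and 257 genes (2.18%) for cycling. The 2 members were Keap1, with a difference of 0.62 (old minus young, log2, unadjusted p 0.0315), and Gclc, with -0.57 (unadjusted p 0.0298). The 3 were Nfe2l2 at 0.21, Gstm1 at 0.25 and Mgst3 at 0.25.

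Of the 88 other pathway genes, 83 were tested between old and young, and none was called by edgeR, with 6 at an unadjusted p under 0.05. DESeq2 called 3 higher and 2 lower, beside 1.24% and 0.269% of all genes. There were 5 without overlap that were higher in old and 3 that were lower, beside 3.63% and 2.42% of all genes. Gstm4, a further mu-class transferase in the Gstm cluster, was at 0.009, 0 and 0.005 CPM among the young and at 0.525, 2.43 and 2.98 CPM among the old populations. Gstt3 was at 0.318, 0.093 and 0.020 CPM among the young and 1.56, 0.604 and 0.731 CPM among the old. Cth, which makes cysteine from cystathionine, was lower in old, at 7.10, 3.68 and 4.96 CPM beside 23.1, 8.999 and 23.7 CPM among the young, with a fold change of -1.85 (log2, SE 0.42, unadjusted p 0.00544). Another 3 genes followed a single population, beside 2.14% of all genes: the carbonyl reductase Cbr3 was low in young replicate 3 (0.577 CPM beside 27.6 to 87.8 CPM), Ephx1 was low in young replicate 2 (2.68 CPM beside 14.8 to 60.2 CPM), and Gstp2 was high in old replicate 3 (10.0 CPM beside 0.098 to 1.56 CPM). In the cycling comparison, 38 of 74 such genes fell and 4 rose, beside 25.8% and 18.6% of all genes.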

How the data were processed

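The authors deposited raw UMI counts per gene and cell for each of the 6 samples, as whole numbers without normalization. Per the file headers, Cell Ranger 7.0.0 made the matrices of both samples numbered 1, with 21849 features, and version 7.2.0 those of the other 4, with 32285. The submitters' processing notes name mm10, Cell Ranger 7.2.0 and Seurat 5.134. How intronic and antisense reads were treated, and the annotation release, are not given in the sources used here. The 21485 Ensembl genes on both lists were used, and gene positions came from GENCODE M21 (GRCm38).

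Cells with at least 1000 UMIs, 500 genes and under 15% mitochondrial UMIs (13 genes) were kept, 61673 of 62849. The 967 shallow and 209 mitochondria-rich barcodes were left out. No doublet caller was run, and an alternative left out the 10% of cells with the most UMIs. Counts were summed per sample, so that samples and not cells were replicates, and tested with edgeR 4.0.16 (R 4.3.3; filterByExpr, TMM, robust quasi-likelihood, two-sided) with terms for gene list and age group. Adjustment was by Benjamini-Hochberg over all genes tested, at 0.05. The SE is the absolute fold change over the square root of F. DESeq2 1.42.0 was an alternative. For the cell classes, cells were thinned to 5000 UMIs (1368 shallower cells left out), summed by class and tested with the sample as a block. Ratios of pooled counts carry 95% intervals of counting error only, and shares of cells 95% Wilson intervals. A count of 0 allows up to 3 counts.

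The fits were tested on simulated data. For old against young, the simulated spread was set below that of the 6 populations. The outcome therefore does not show how often the real comparison finds or misses a change. The members and lists were chosen with earlier results of these data known. Named were members called or without overlap, those following a single population and the regulators. The glutathione synthesis genes, Hmox1, Gpx3, Gpx4 and the 3 members with the highest mean level were named too. Values of every sample are given for part of these members, and a range or a fold change for the others. Of the other pathway genes, at most 6 were named by the same kind of rule, together with examples of the NRF2 targets chosen after their values were seen. Alternatives were other scaling, no filter, no list term, the replicate block, other class limits and leaving out each sample.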

Additional observations from a re-analysis of the deposited data

Results flagged for a closer look

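Among 65 sets of 4 to 10 per-population values examined, 2 held a sample far from the others, and chance alone gives about 5% of such sets. In young replicate 1, Slc7a11 was lower in Myog-positive than in Myog-negative cells by a log2 ratio of -3.39, while the other 4 populations ranged from -1.27 to -0.42. The level in the Myog-positive cells of that population rests on 3 UMIs. In the same population, Gstm2 was higher in cycling than in double-negative cells, at 0.39, while the other 5 ranged from -0.56 to -0.30. This value of 0.39 rests on 22 UMIs in cycling and 75 UMIs in double-negative cells.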

How the results depend on the processing

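In the comparison of old with young, DESeq2 called 219 genes and 5 members, library size scaling alone (chosen after seeing the data) 2 genes, and the fits without the gene list term or on the longer list only 0 genes. Leaving out 1 sample gave 0 to 3 genes and 0 to 1 members, with the highest value of both without young replicate 3. Without young replicate 1 or old replicate 1 the gene count was 0. Through the gene list term, both of these fits rest on the longer-list samples alone, which also gave 0 genes. The cause of the other changes was not tested. The number of members that followed a single population was 1 with 5 CPM added (0.765% of all genes) and 1 with an 8-fold limit (0.558%), and 6 members, with Gstm5 added, did not overlap in unscaled CPM, beside 5.93% of all genes. In the Myog comparison, leaving out 1 population gave 2667 to 3906 genes and 7 to 19 members, with 2667, 2728 and 2682 genes without young replicate 2, old replicate 2 and old replicate 3, and 10 and 7 members without the last 2 of these, the 7 at the share of all genes (22.6% and 22.2%). In the cycling comparison the ranges were 4323 to 5195 genes and 23 to 27 members. Between old and young, the number of members with a fold change above 0 ran from 18 to 25 of 35 over the alternatives, so some changed sign. No fold change reversed in the alternatives run for 9 members between old and young (Gpx3, Gpx7, Sod3, Gstm2, Gstm5, Mgst1, Hmox1, Gss and Prdx4). The same held for the members called in the comparisons of cell classes. These called members, and the 5 of the 9 without overlap, were named for their differences in these same data. Their signs thus had little room to reverse. Between old and young, 129 values kept their side of the threshold and 6 gained a call. For Myog, 185 kept it and 36 lost it, and for cycling 348 kept it and 27 lost it. The Myog values hold 1 fit under both of its names, without young replicate 1 and on the longer list only. With the replicate number as a block, 1 gene and 0 members were called between old and young, as without it; samples with the same number correlated at 0.40, 0.28 and -0.11, so the numbers were not taken to pair them. The biological coefficient of variation over the 6 populations was 0.563. Gpx3, Gpx7 and Sod3 did not pass the filter on low counts in the Myog comparison, in which 32 members were tested, and 34 were with counts not thinned.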
